A study of Mus musculus with 33 samples.

Results

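The genes described here are 8 channel genes of the heart's pacemaker and repolarising currents: Hcn4, Cacna1g, Cacna1h, Kcnj2, Kcnj3, Kcnh2, Kcnq1 and Kcnd2. They were chosen by symbol from a count table of 14862 gene rows. A row was matched for 7 of the 8. Kcnj3, which encodes a pore subunit of the acetylcholine-gated potassium channel, is not analysed here. The grouping has been called sodium, potassium and pacemaker channels, but none of the 8 is a sodium channel, and Cacna1g and Cacna1h encode T-type calcium channels.

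The study compared cycling and non-cycling heart muscle cells of mouse before and after birth, 1 cell per library. All mice carried mAG-hGem, the FUCCI reporter in which a green fluorescent protein is fused to geminin and builds up from S to M phase, and no unmodified mice were among the groups. Ventricles were digested with enzymes, cells were sorted by fluorescence, and cDNA of a cell was accepted when PCR detected troponin T2 but not Pdgfrb, per the labels' protocols. The 33 cells comprised 10 mAG-hGem positive and 11 negative cells of embryonic day 14.5 (E14.5), and 6 positive and 6 negative cells of postnatal day 5 (P5). Strain, sex and number of mice are not given in the sources used here. With no animal named, each group counts as 1 sample. Therefore no group difference was tested, no p-value is given, and intervals cover counting error only.

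Cell names below are those of the labels: G for E14.5 positive, N for E14.5 negative, and L1 or L2 followed by P or N for P5 positive or negative. What L1 and L2 stand for is not given in the labels. Totals per cell ran from 2.55 to 38.5 M counts (M, 1000000), with a median of 12.8 M. Of 11 cardiomyocyte markers, the summed level was at least 10000 counts per 1000000 (CPM) in 26 cells: all 10 positive and all 11 negative cells of E14.5, but 5 of 6 positive and 0 of 6 negative cells of P5. The P5 negative cells had 0.345 to 3286 CPM of these markers and 587 to 38332 CPM of 7 endothelial markers. In 2 of them, L1N3 and L2N10, red blood cell markers made up 225563 and 61442 CPM, above their endothelial sums of 26757 and 12885 CPM. CPM is a share of all counts, so these reads lower the CPM of the other genes in both cells. P5 positive cell L2P12 had 94.6 CPM of cardiomyocyte and 16958 CPM of endothelial markers. The data thus go against the cardiomyocyte label for these 7 cells, and every comparison with the P5 negative group sets cells led by cardiomyocyte markers mostly against cells led by other markers. One E14.5 negative cell, N10, had 46231 CPM of fibroblast and mural markers beside its cardiomyocyte markers.

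An action potential in a heart cell is shaped by channels that open in sequence. HCN channels and T-type calcium channels carry inward current at negative voltages and drive spontaneous beating, which immature ventricular myocytes can show and mature ones largely lose. Potassium channels return the cell to rest: Kv4 channels early, the Kcnh2 and Kcnq1 channels later, and Kir2 channels by holding the resting voltage.

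Promoter windows from RefSeq (assembly GRCm38.p6, 250 bases before to 50 after a gene's start, 5′ to 3′) were held for 5 of the 8 genes. The windows of Hcn4 and Kcnd2 are shown because Hcn4 had the fewest reads of the 7 analysed genes and Kcnd2 the highest level in a single cell. Capitals mark the dinucleotide CG, which reads the same on both strands. The Hcn4 window lies at chr9:58822699-58822998 on the plus strand and the Kcnd2 window at chr6:21215096-21215395 on the plus strand. Both are set by RefSeq starts and end before the GENCODE M21 gene starts used below, chr9:58823412 and chr6:21215503.
Hcn4: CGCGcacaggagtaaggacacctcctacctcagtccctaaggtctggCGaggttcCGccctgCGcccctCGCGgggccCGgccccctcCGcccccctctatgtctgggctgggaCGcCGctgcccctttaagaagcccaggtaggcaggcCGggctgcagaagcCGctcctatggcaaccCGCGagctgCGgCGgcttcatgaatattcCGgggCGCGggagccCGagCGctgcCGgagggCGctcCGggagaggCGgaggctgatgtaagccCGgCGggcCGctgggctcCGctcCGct
Kcnd2: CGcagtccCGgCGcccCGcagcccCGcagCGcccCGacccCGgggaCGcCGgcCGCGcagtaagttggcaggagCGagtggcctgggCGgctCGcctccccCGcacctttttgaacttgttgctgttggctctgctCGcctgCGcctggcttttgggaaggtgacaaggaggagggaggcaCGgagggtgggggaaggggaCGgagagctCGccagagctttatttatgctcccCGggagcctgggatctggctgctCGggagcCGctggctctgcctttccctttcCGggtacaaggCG
The Hcn4 window held 31 CG and the Kcnd2 window 26, against a median of 7 over 32851 windows of the same length. As many CG or more were in 10.6% and 16.9% of all windows. The motif TATAAA was in neither window on either strand, and 13.6% of all windows hold it. The windows of Kcnh2 and Kcnj2 held 19 and 18 CG, and that of Kcnh2 (chr5:24329542-24329841) lies inside the GENCODE M21 span of the gene. The most CG-rich of these windows therefore belonged to the gene with the fewest reads, and no methylation or factor binding was measured here.

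Hcn4 (chr9:58823412-58863175, plus strand, protein coding; all gene coordinates are GENCODE M21 on GRCm38) encodes the main channel of the pacemaker current in the sinoatrial node. It was close to undetected in these ventricular cells. A single read was counted in each of 3 cells: G2 at 0.119 CPM, N21 at 0.0804 CPM and N10 at 0.0534 CPM. The other 30 cells had 0 reads. For a group, 3 counts correspond to 0.0190 CPM in E14.5 positive, 0.0153 in E14.5 negative, 0.0326 in P5 positive and 0.0362 in P5 negative cells. The upper ends of the 95% intervals for 0 reads were 0.0400 CPM in P5 positive and 0.0445 CPM in P5 negative cells. No group had more than 3 counts, so no ratio is given. Hcn2, which encodes a related pacemaker channel, was read in the P5 positive cells L2P7 and L2P10 only, at 0.0798 and 0.318 CPM.

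Transcripts of both T-type channels, the low-voltage-activated calcium channels, were lower in E14.5 positive than in E14.5 negative cells. Cacna1g (Cav3.1, chr11:94408391-94474198, minus strand) had 1.01 CPM in the summed positive cells of E14.5 and 11.1 in the negative, against 0.760 and 0 at P5. The lowest, median and highest cells were at 0, 0 and 10.99 CPM in E14.5 positive, 0, 0 and 50.3 in E14.5 negative, and 0, 0 and 5.43 in P5 positive cells. The level came from few cells: N21 (50.3 CPM), N10 (45.1) and N25 (31.0) in the negative group, and G10 (10.99) and G1 (5.30) in the positive group. Cells of both groups overlapped at 0. The log2 ratio of E14.5 positive over negative cells was -3.46 (counting interval -3.70 to -3.23), which is 10.99-fold lower, and it was -5.07 without G10. It lay between -5.07 and -2.89 when any 1 cell was left out, and was -2.48 among label numbers 1 to 10 and -8.89 among 21 to 30.

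Cacna1h (Cav3.2, chr17:25374285-25433783, minus strand) was the more widely detected T-type gene. Summed levels were 6.12 CPM in E14.5 positive, 21.4 in E14.5 negative, 2.56 in P5 positive and 4.53 in P5 negative cells. E14.5 positive cells had 0, 0.0785 and 35.1 CPM as lowest, median and highest values, and E14.5 negative cells had 0, 15.2 and 54.4 CPM. At least 10 CPM was reached by 7 of 11 negative cells and by 2 of 10 positive ones, G29 and G1. The typical negative cell thus carried the transcript and the typical positive cell carried little of it, although the ranges overlapped. The log2 ratio was -1.81 (-1.91 to -1.71), or 3.50-fold lower in positive cells, and -3.54 without G29, the cell with 35.1 CPM. It lay between -3.54 and -1.23 when any 1 cell was left out. At P5, the level came from single cells: L2P10 with 18.5 CPM held 98.7% of the counts of the positive group, and L2N12 with 22.2 CPM held 99.7% of those of the negative group. L2N12 was led by fibroblast and mural markers (19199 CPM).

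The P5 level of the T-type genes therefore rests on a handful of cells. For Cacna1h, P5 positive cells over those of E14.5 gave a log2 ratio of -1.26 (-1.47 to -1.05). Without L2P10 it was -7.34, and without G29 it was 0.48, so the direction is not settled by these cells. It was -0.995 without L2P3, -0.77 without L2P8 and -0.85 without L2P12, all short of 2-fold. For Cacna1g the same ratio was -0.41 (-0.84 to 0.00), and it was -5.33 without L2P7 and 1.20 without G10. Cacna1g had no read in any of the 6 P5 negative cells, against a summed 11.1 CPM in E14.5 negative cells, which makes it at least 308-fold lower there; the bound was a log2 ratio of -7.66 without L2N7. Among negative cells, Cacna1h was 4.73-fold lower at P5 than at E14.5 (log2 ratio -2.24, -2.40 to -2.09), with -10.47 without L2N12 and -1.64 without L2N7.

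**Figure D1:**
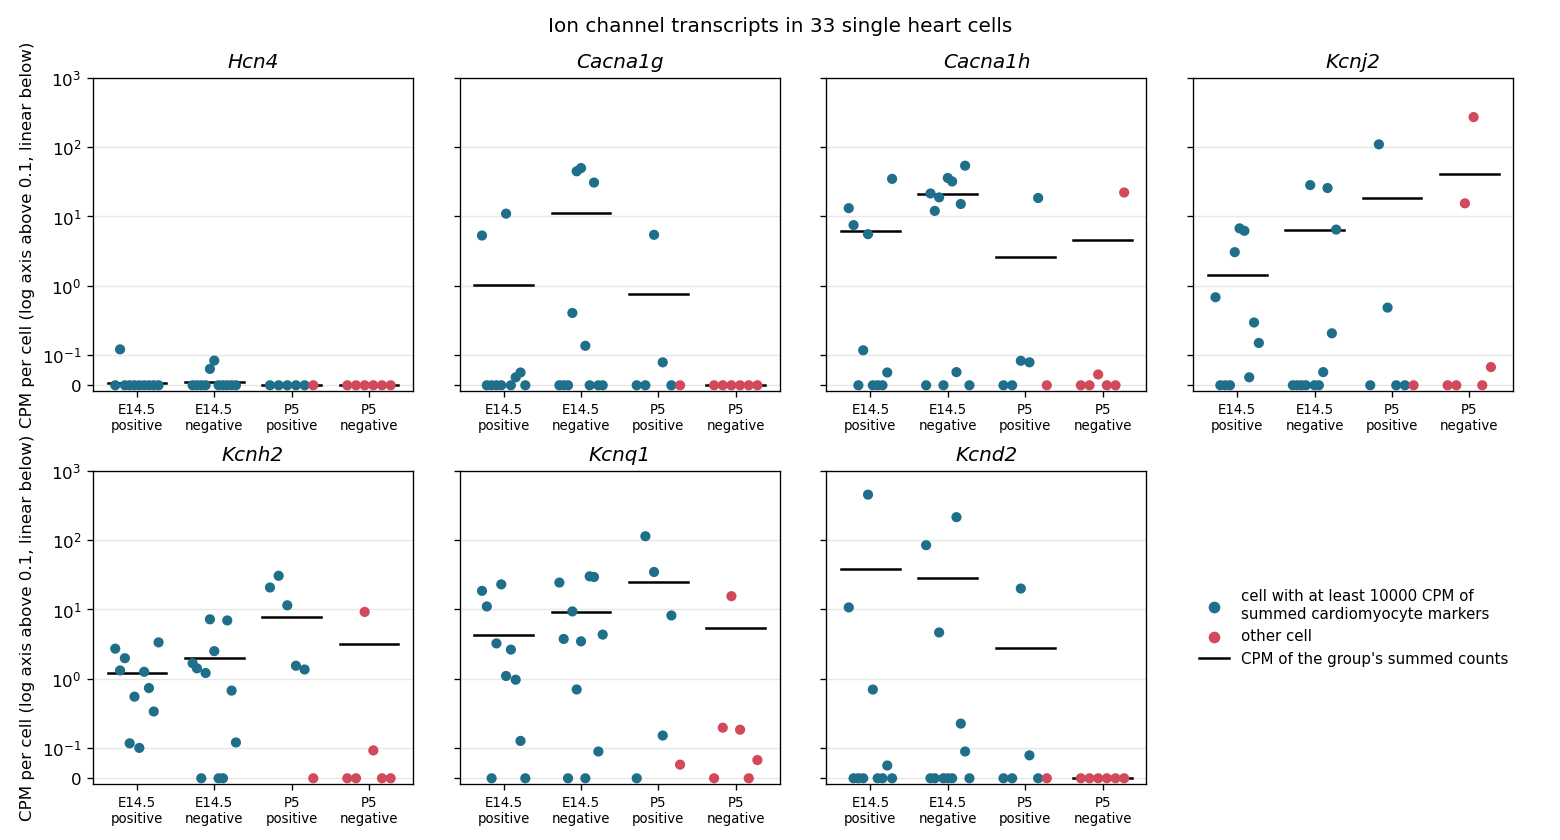
CPM of each analysed gene in each of 33 cells (points) by group, on an axis that is logarithmic above 0.1 and linear below; black lines are the CPM of the summed counts of a group, and red points are the 7 cells under 10000 CPM of cardiomyocyte markers. Hcn4 stays at or near 0 in every cell, while Kcnd2 and Kcnj2 lie at 0 in most cells and above 100 CPM in a few, such as G8 (461 CPM of Kcnd2) and L2N9 (275 CPM of Kcnj2).

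The sort compares cells by cycle phase, and 8 G2/M markers followed it: summed levels were 391 to 5180 CPM in E14.5 positive and 0 to 1000 CPM in E14.5 negative cells. The 3 E14.5 negative cells with the most Cacna1g, N21, N10 and N25, were all low in these markers in the plot of T-type transcripts against G2/M markers. This does not set them apart, as the median of the group was 2.65 CPM. N3, N7 and N28, at 0, 0.119 and 0.291 CPM of the markers, had 0 reads of Cacna1g. N10 is also the cell with 46231 CPM of fibroblast and mural markers. Among positive cells, G29 had the most Cacna1h of its group (35.1 CPM) and also the most G2/M marker signal (5180 CPM). High G2/M marker levels and high Cacna1h thus occurred together in G29, but not in the positive cells next in these markers. G5, G27, G25 and G28 (4916, 4866, 4782 and 4370 CPM of markers) had 0, 0, 0 and 0.0416 CPM of Cacna1h. G1, G2 and G8, lower in the markers (1900, 391 and 2293 CPM), had 13.2, 7.50 and 5.54 CPM. G6 and G10 (1119 and 1748 CPM) had 0.115 and 0 CPM. In P5 positive cells the markers ran from 19.1 CPM, in L2P10, to 4347 CPM, in L2P12, and L2P10 was the one P5 positive cell with at least 10 CPM of Cacna1h. Whether cycle phase or another difference between the sorted cells goes with the T-type levels was not tested.

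**Figure D2:**
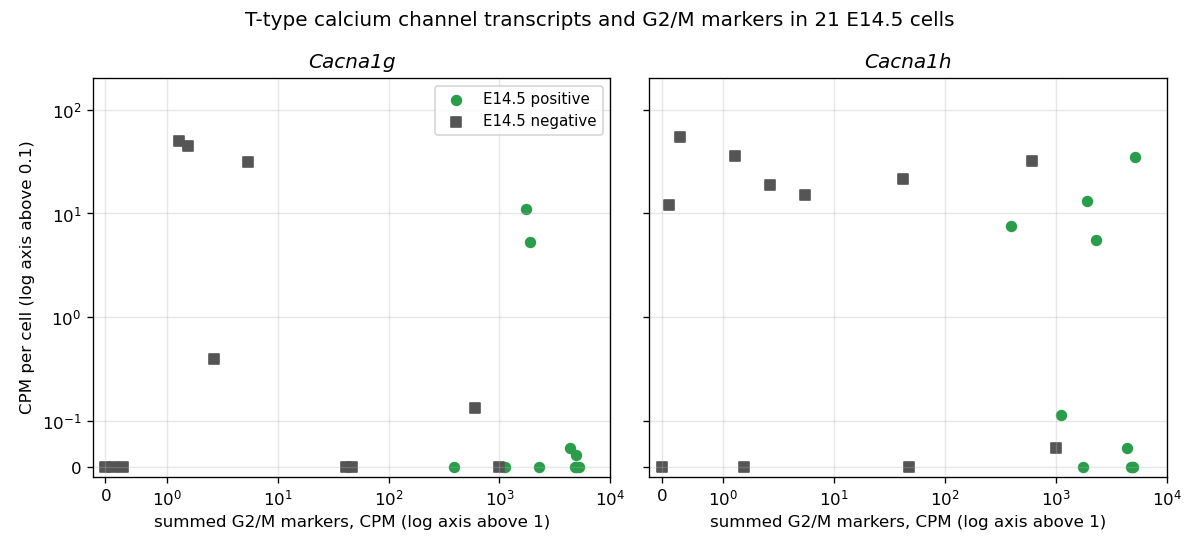
CPM of Cacna1g (left) and Cacna1h (right) against the summed CPM of 8 G2/M markers in 21 E14.5 cells (points, green circles positive and grey squares negative), both axes logarithmic with a linear stretch near 0. The cells above 30 CPM of Cacna1g are 3 negative cells with low marker sums, which other negative cells without Cacna1g reads also have. Cacna1h reaches 35.1 CPM in the positive cell G29, while G5, G25, G27 and G28, also high in the markers, lie at or near 0.

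Kcnj2 (Kir2.1, chr11:111066164-111076821, plus strand) encodes the main inward rectifier that holds the resting voltage of ventricular muscle. Summed levels were 1.44 CPM in E14.5 positive, 6.30 in E14.5 negative, 18.4 in P5 positive and 41.9 in P5 negative cells. The medians were 0.219, 0, 0 and 0.0297 CPM, so the order of the summed levels is not that of a typical cell. The highest cells were G10 (6.73 CPM), N10 (28.5), L2P3 (111) and L2N9 (275). L2P3 held 99.6% of the P5 positive counts and L2N9 held 87.3% of the P5 negative counts. The other 5 P5 positive cells lay between 0 and 0.479 CPM, and only L2N7 (15.5 CPM) exceeded 1 CPM among the other P5 negative cells. L2N9 was endothelial-led, so the highest Kcnj2 level of the 33 cells was in a cell that the marker genes do not place among cardiomyocytes.

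The P5 ratios of Kcnj2 followed these cells. P5 positive over E14.5 positive gave a log2 ratio of 3.67 (3.47 to 3.88), which became -4.21 without L2P3 and 4.39 without G25. P5 positive over P5 negative gave -1.19 (-1.27 to -1.10), which became -9.07 without L2P3 and 1.59 without L2N9. It fell short of 2-fold without L2P7 (-0.98), L2P8 (-0.69), L2P10 (-0.97) or L2P12 (-0.78). P5 negative over E14.5 negative gave 2.73 (2.64 to 2.83), which became -0.04 without L2N9, 3.41 without N10 and 3.48 without N25. Each of these 3 directions turned when 1 cell, L2P3 for the first and L2N9 for the others, was left out. At E14.5, Kcnj2 was 4.36-fold lower in positive than in negative cells (log2 ratio -2.13, -2.34 to -1.92). This ratio was -2.84 without G25, -1.45 without N10 and -1.38 without N25, and it stayed past 2-fold whichever single cell was left out. N10 (533 counts) and N25 (581 counts) held most of the 1231 counts of the negative group, and leaving out both was not tried. The medians went the other way, at 0.219 CPM in positive and 0 in negative cells. The direction therefore rests on N10 and N25, and N10 also had 46231 CPM of fibroblast and mural markers. Kcnj2 reached 10 CPM in 2 of 11 negative cells, N10 and N25, and in 0 of 10 positive ones.

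Kcnh2 (ERG1, chr5:24319589-24351604, minus strand) carries the rapid delayed rectifier current that ends the action potential. It was low but widely detected in cardiomyocyte-led cells and higher at P5. A read was present in 10 of 10 E14.5 positive cells, 8 of 11 E14.5 negative cells, and at P5 in 5 of 6 positive but only 2 of 6 negative cells. The 5 P5 positive cells were exactly the 5 led by cardiomyocyte markers. At a common depth of 8000000 counts per cell, which leaves out 4 shallower cells, the shares were 9 of 10, 7 of 10, 4 of 5 and 2 of 4. As a gene that cardiomyocytes should lack, the endothelial Cdh5 had a read in 0 of 10, 0 of 11, 5 of 6 and 6 of 6 cells, and in 4 of the 5 cardiomyocyte-led P5 positive cells, none of which reached 1 CPM of it. Other endothelial markers were read in single E14.5 cells, such as Cav1 in G2 and Pecam1 in G1 (both 8.69 CPM) and Kdr in N21 (26.1 CPM). Over all P5 positive cells, a mere read of Kcnh2 was thus no more frequent than one of Cdh5, whereas all 5 cardiomyocyte-led cells had at least 1 CPM of Kcnh2.

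Per cell, Kcnh2 had 0.0990, 0.990 and 3.34 CPM (lowest, median, highest) in E14.5 positive and 0, 1.20 and 7.21 CPM in E14.5 negative cells. In P5 positive cells the values were 0, 6.52 and 30.8 CPM, with L2P3 at 30.8, L1P5 at 20.8, L2P7 at 11.5, L2P8 at 1.53, L2P10 at 1.35 and L2P12 at 0 CPM. No cell of the other groups reached 10 CPM, whereas 3 of the 6 P5 positive cells did. The summed levels were 1.19, 1.98, 7.86 and 3.17 CPM in the positive and negative cells of E14.5 and then of P5. P5 positive over E14.5 positive gave a log2 ratio of 2.72 (2.49 to 2.96), which is 6.61-fold higher, and 1.48 without L2P3. That ratio stayed past 2-fold whichever cell was left out. At E14.5, positive over negative cells gave -0.73 (-0.99 to -0.48), short of 2-fold, but it was -1.18 without G29 and -1.53 among label numbers 1 to 10. L2N7, an endothelial-led cell with 9.23 CPM, held 99.6% of the P5 negative counts. P5 positive over P5 negative gave 1.31 (1.10 to 1.52), with 0.06 without L2P3, 0.98 without L2N12 and 8.74 without L2N7.

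Kcnq1 (KvLQT1, chr7:143106362-143427042, plus strand) forms the slow delayed rectifier together with the auxiliary subunit Kcne1. It had 4.28 CPM in E14.5 positive, 9.24 in E14.5 negative, 24.95 in P5 positive and 5.39 in P5 negative cells. The lowest, median and highest cells were at 0, 1.86 and 23.1 CPM in E14.5 positive, 0, 3.75 and 30.2 in E14.5 negative, 0, 4.17 and 115 in P5 positive and 0, 0.120 and 15.6 in P5 negative cells. L2P3 held 76.3% of the P5 positive counts. The medians of the first 3 groups were thus closer together than their summed levels. P5 positive over E14.5 positive gave a log2 ratio of 2.54 (2.42 to 2.67), 0.73 without L2P3 and 3.25 without G8. P5 positive over P5 negative gave 2.21 (2.06 to 2.36), 0.40 without L2P3 and 8.41 without L2N7, which held 99.1% of the P5 negative counts.

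At E14.5 the Kcnq1 ratio of positive over negative cells was -1.11 (-1.24 to -0.98), at the edge of 2-fold. It was -1.82 without G8 and short of 2-fold without G27 (-0.79), G28 (-0.88), G29 (-0.91), N24 (-0.58) or N25 (-0.62). Among the cells whose label numbers run from 1 to 10 it was 0.85, in the other direction, and among those from 21 to 30 it was -3.66. Kcnq1 shares 121 exon bases with Kcnq1ot1, a long antisense RNA of the same locus, and Cacna1h shares 158 with Tpsg1 on the opposite strand. Whether strand was used in counting is not given in the sources used here. Over all cells Kcnq1 had 5229 counts and Kcnq1ot1 had 62807. Cell G28 had 7772 counts of Kcnq1ot1 beside 3 of Kcnq1, and L2P3, with the highest Kcnq1 level, had 0 beside 1753. Other cells did not follow this: G27 had 0 beside 37, L1P5 had 0 of both, and N25 had 3943 beside 665. Tpsg1 had 36 counts in all cells against 5769 of Cacna1h.

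Kcne1 was read in every E14.5 cell, unlike Kcnq1. Its summed levels were 76.7 CPM in E14.5 positive, 107 in E14.5 negative, 41.5 in P5 positive and 0 in P5 negative cells. Its lowest E14.5 cells were at 0.0833 CPM in the positive and 16.5 CPM in the negative group. Without G27 the E14.5 positive level was 41.5 CPM, and without L2P3 the P5 positive level was 26.5 CPM. In the endothelial-led P5 cell L2N7, Kcnq1 (15.6 CPM) was therefore read without Kcne1. Kcne3, another auxiliary subunit, had 36.4 CPM in the P5 negative group and 0 in the other 3 groups. Its highest cell was L2N10 (112 CPM, 53.6% of the group's counts), which had 0 reads of Kcnq1.

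Kcnd2 (Kv4.2, chr6:21215503-21729805, plus strand) carries the fast transient outward current of early repolarisation. It was high in 3 E14.5 cells and at or near 0 in most others. G8 had 461 CPM, N24 had 217 and N3 had 85.3, followed by L2P7 with 20.1 and G1 with 10.7 CPM. The median was 0 in all 4 groups. G8 held 98.3% of the E14.5 positive counts, N24 held 89.8% of the E14.5 negative counts, and L2P7 held 99.2% of the P5 positive counts. Summed levels were 38.0, 28.9, 2.76 and 0 CPM in the positive and negative cells of E14.5 and then of P5. The 5 E14.5 cells with at least 1 CPM of Kcnd2 all had at least 1 CPM of Kcnq1, which was found in 13 of the 21 E14.5 cells.

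Group ratios of Kcnd2 were accordingly set by single cells. P5 positive over E14.5 positive gave a log2 ratio of -3.78 (-3.97 to -3.60), -10.56 without L2P7 and 1.96 without G8. E14.5 positive over negative gave 0.40 (0.34 to 0.45), -5.35 without G8 and 3.50 without N24. It was 3.34 among label numbers 1 to 10, which hold G8, and -11.83 among 21 to 30, which hold N24. No P5 negative cell had a read, which makes Kcnd2 at least 76.2-fold higher among the positive cells of P5 and, compared with E14.5, at least 799-fold lower among the negative cells. Without L2N7 the log2 bounds were 5.65 and -9.04, and without N24 the second was -6.53. Without L2P7, which held 252 of the 254 P5 positive counts, only the 2 reads of L2P8 remained. That is fewer than the 3 counts set for a group with no read, so the first bound then has no value. It rests on 1 cell. Of the auxiliary subunits, Kcnip2, the usual partner of Kv4 channels, went the other way from Kcnd2 between the positive groups, with 0.715 CPM at E14.5, 16.1 CPM at P5 and 0 in both negative groups. Kcnip2 ran from 0 to 38.8 CPM in P5 positive cells with a median of 12.5, and L2P8 held the largest share of its counts, 40.0%. Without G27 its E14.5 positive level was 0.0836 CPM.

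**Figure D3:**
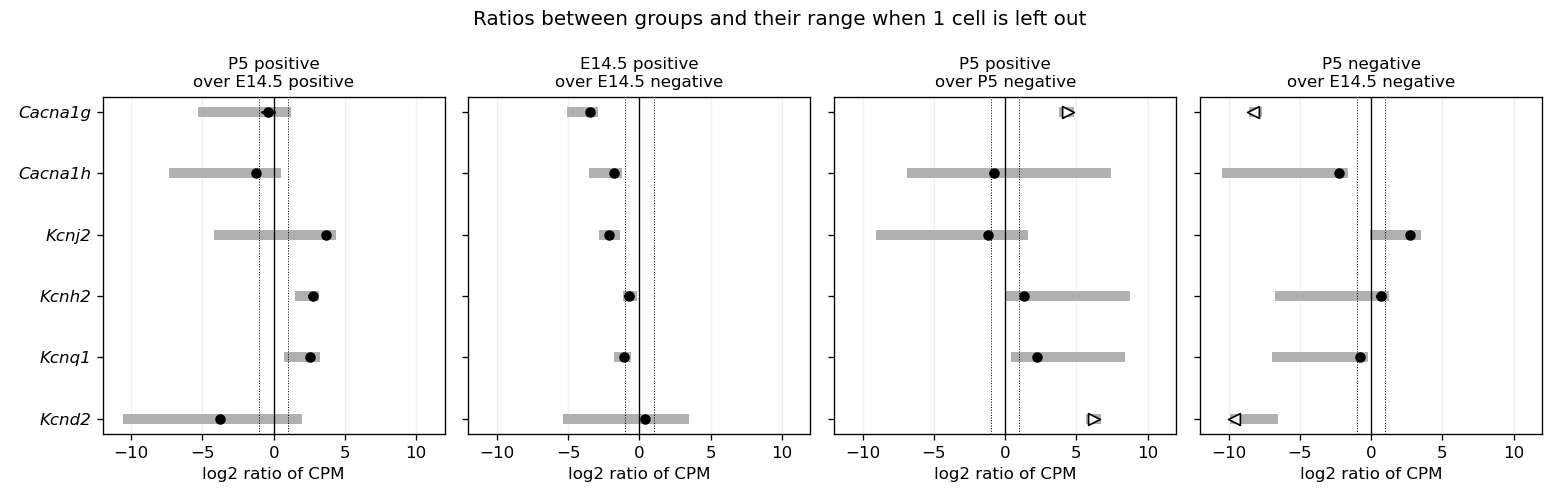
Log2 ratio of CPM between summed groups (points) for 6 genes in 4 comparisons, with counting intervals (black lines, mostly narrower than the point) and the range when any 1 cell is left out (grey bars). Open triangles are bounds against a group with no read, dotted lines mark 2-fold, and grey bars that cross 0 show ratios whose direction depends on 1 cell. For Kcnd2 and Cacna1g in P5 positive over P5 negative, the bars do not cover the omission of L2P7, which left too few reads for a ratio.

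Read as a set, the genes can be put beside all genes with at least 1 CPM in either group of a comparison, where a call means at least 2-fold. For P5 positive over E14.5 positive, 6 of the 7 genes entered and 3 were higher and 2 lower, while 32.2% of 10640 genes were higher and 36.3% lower. For E14.5 positive over negative, 0 of 6 were higher and 4 lower, while 18.9% of 10693 genes were higher and 27.2% lower. For P5 positive over P5 negative, 3 of 5 were higher and 1 lower, against 33.2% and 39.1% of 10640 genes. For P5 negative over E14.5 negative, 1 of 6 was higher and 3 lower, against 34.8% and 38.7% of 11226 genes. The median log2 ratios of the entered genes were 1.06, -1.46, 1.31 and -1.51, and those of all genes -0.16, -0.18, -0.31 and -0.10. With large shares of all genes past 2-fold, most of these counts are not far from the background, and the ranges of single cells overlapped for every gene in every comparison. The first 2 comparisons share the E14.5 positive cells, and each of the other groups also enters 2 comparisons.

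Levels of different genes were compared per kilobase of annotated exon, from 4.09 kb for Kcnq1 to 10.1 kb for Cacna1g. The mRNA was amplified as antisense RNA, and how evenly reads cover the exons was not tested. The order of genes of unlike length is therefore uncertain. In E14.5 positive cells the summed CPM per kilobase was 7.37 for Kcnd2, 1.05 for Kcnq1, 0.627 for Cacna1h, 0.265 for Kcnj2, 0.245 for Kcnh2, 0.0998 for Cacna1g and 0.00103 for Hcn4. In P5 positive cells it was 6.10 for Kcnq1, 3.38 for Kcnj2, 1.62 for Kcnh2, 0.535 for Kcnd2, 0.262 for Cacna1h and 0.0749 for Cacna1g. By this scale the delayed rectifier and inward rectifier genes headed the P5 positive cells and Kcnd2 headed the E14.5 positive cells, the latter through G8. L2P3 carries much of the P5 order: without it, a calculation added after the data were seen, the values were 1.73 for Kcnq1, 0.684 for Kcnh2, 0.641 for Kcnd2 and 0.0143 for Kcnj2, which then had 6 counts and came last of the 6 detected genes. The neighbours in either order do not differ beyond the spread of their cells, which ran from 0 or near 0 upward for each gene.

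Within a cell, few of the 7 genes were present together. The number at 1 CPM or more had a median of 2.5 in E14.5 positive, 3 in E14.5 negative, 2 in P5 positive and 0.5 in P5 negative cells, and its maximum was 5. None reached 1 CPM in G27, G28, L2P12, L1N3, L2N4 and L2N10. G27 and G28 were led by cardiomyocyte markers and had 38.5 and 24.01 M counts, while L1N3 and L2N4 had 7.07 and 5.15 M. Of the 11 E14.5 cells with Cacna1h and the 5 with Cacna1g at this level, 3 had both. Kcnh2 and Kcnq1, which share the task of late repolarisation, were found together in 8 cells, out of 11 and 13.

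Across the 21 E14.5 cells, Kcnh2, Kcnq1 and Cacna1h were frequent enough for a description of similar patterns. Spearman's rho between them was 0.13 (Kcnh2 and Kcnq1), 0.11 (Kcnh2 and Cacna1h) and -0.08 (Kcnq1 and Cacna1h). Among 6968 other genes, the closest to Kcnh2 were P4ha3 (0.757), Dlgap4 (0.727) and Lace1 (0.723). The closest to Kcnq1 were Nampt (0.767), Ncoa6 (0.754) and Msantd2 (0.743), and those to Cacna1h were Poldip2 (0.830), Fgf1 (0.787) and Kti12 (0.750). These are the extremes of many correlations over cells that share 2 sorted groups and differ in depth.

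Other channel genes give the setting. Of 40 genes in 8 lists, 31 were matched and 18 reached 10 CPM in a group. For E14.5 positive over negative, 2 of 18 that entered were higher and 9 lower, beside 18.9% and 27.2% of all genes. For P5 positive over E14.5 positive, 8 of 18 were higher and 6 lower, beside 32.2% and 36.3%. For P5 positive over P5 negative, 14 of 19 were higher and 5 lower, beside 33.2% and 39.1%, and for P5 negative over E14.5 negative, 4 of 20 were higher and 15 lower, beside 34.8% and 38.7%. The L-type calcium channel subunits, which carry the main calcium current of working muscle, had 3 of 4 entered genes lower and 0 higher in P5 positive than in E14.5 positive cells, beside the 36.3% lower among all genes. The pore gene Cacna1c had 81.9, 106, 38.1 and 0 CPM in the positive and negative cells of E14.5 and then of P5, and 44.75 CPM in E14.5 positive cells without G5. Unlike Cacna1c, Cacna1h still had reads in the P5 negative group, all but a single one from L2N12.

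Partners of the inward rectifiers also differed between groups. Kcnj5, which pairs with Kcnj3, had 3.73 CPM in E14.5 positive, 22.7 in E14.5 negative, 5.74 in P5 positive and 0 in P5 negative cells, with N28 at 94.3 CPM. Without N28 the E14.5 negative level was 7.47 CPM, and without L2P8 the P5 positive level was 0.0459 CPM. Chrm2, the muscarinic receptor that opens this channel, had 0.791, 3.04, 35.7 and 0 CPM, and Adora1, an adenosine receptor that does the same, had 1.42, 10.6, 1.83 and 0 CPM. Single cells carried these levels: without N23, Adora1 was at 0.235 CPM in E14.5 negative cells, and without N25, Chrm2 was at 0 there. Without L2P8, Chrm2 was at 10.97 CPM in P5 positive cells. The ATP-sensitive channel gene Kcnj8 had 160 CPM in P5 negative cells, of which L2N7 held 93.8%. Its cardiac relative Kcnj11 had 33.6 CPM in P5 positive cells, of which L2P8 held 96.5%. Kcna5 had 95.4 CPM in P5 negative cells, mostly in L2N4 (1452 CPM), and 49.0 CPM in L2P12, the P5 positive cell low in cardiomyocyte and high in endothelial markers. Abcc9 had 134, 258, 22.0 and 178 CPM in positive and negative cells of E14.5 and then P5, with 92.0% of the last in L2N7. In this order, Kcna4 had 73.4, 39.9, 0.651 and 0 CPM, with 93.9% of the first in G27. Kcnk3 had 4.36, 0.189, 24.7 and 0 CPM, with 98.2% of the third in L2P8. Kcne4 had 25.1 CPM in E14.5 negative cells, 99.9% of it in N23, and 0 in the other groups.

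**Figure D4:**
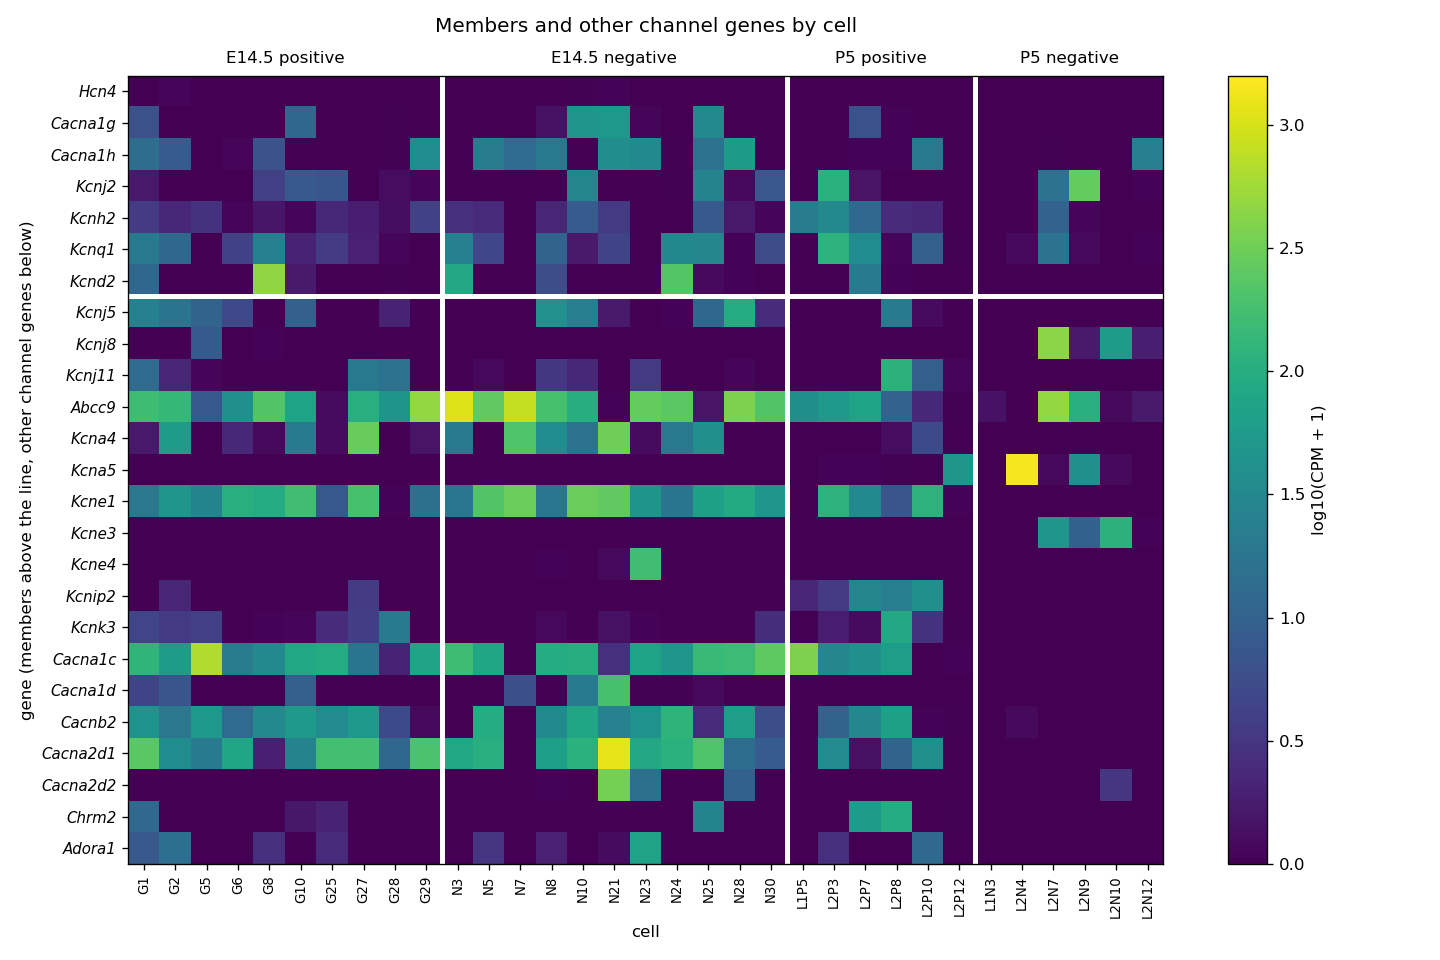
Level, as log10(CPM + 1), of the 7 analysed genes (above the white line) and 18 other channel genes (below) in 33 cells ordered by group. Kcne1 and Cacna1c fill most E14.5 columns, while the 7 genes above the line appear in scattered cells and Kcnj8, Kcna5 and Kcne3 mark P5 negative columns.

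Markers of pacemaker and conduction cells were read beside these genes, because Hcn4 and the T-type genes are also known from the nodes. Of 8 such markers 7 were matched, and their summed level had medians of 81.5 CPM in E14.5 positive, 16.9 in E14.5 negative, 0 in P5 positive and 0.580 in P5 negative cells. Tbx18 led in the E14.5 positive and negative groups (115 and 73.6 CPM), and Smoc2 in P5 negative cells (101 CPM, beside 47.1 of Tbx18). The nodal factors Shox2 and Isl1 were at or near 0. The ventricular gene Myl2 had 5997 and 4874 CPM in the E14.5 groups and 10087 CPM in P5 positive cells, against 24.1 CPM in P5 negative cells. Of the atrial genes, Myl7 had 193 and 211 CPM in the E14.5 groups and 0 in P5 positive cells. Nppa went the other way, with 31.9 and 0.460 CPM at E14.5 and 209 CPM in P5 positive cells, where L2P3, the cell with the highest Kcnq1 level, had 1262 CPM. Hcn4 was at or near 0 both in groups with high Myl2 and in the P5 negative group with little of it.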

How the data were processed

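The authors deposited raw read counts per gene for 33 single mouse heart cells, whose mRNA was amplified as antisense RNA before TruSeq libraries were made, per the labels' protocols. CASAVA 1.8.2, STAR 2.4.0j, HTSeq 0.6.1p1 and build mm10 are named per the submitters' processing notes; annotation, strand setting and any molecular identifiers are not given in the sources used here. Amplified reads are not independent molecules, so intervals (95%) are too narrow for biology. For each group, the summed counts of a gene per 1000000 summed counts gave its CPM, with an exact Poisson interval; ratios have Clopper-Pearson intervals. A group at 0 was set at 3 counts. A call needed 2-fold and 1 CPM in the higher group. Alternatives used edgeR 4.0.16 and DESeq2 1.42.0 scaling factors, thinning to 8000000 counts, other limits and each cell left out. The code was tested on simulated data. All members were named, other channel genes from 10 CPM in a group (and Hcn2 below it), and the 3 genes most like each frequent member. Members and lists were chosen with earlier results of these data known.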

Additional observations from a re-analysis of the deposited data

Results flagged for a closer look

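Within groups of 6 or 10 cells, the highest cell stood apart from the others by Dixon's limit in 13 of 17 gene and group combinations, of which 10 reached 10 CPM. Chance flags about 1 in 20 groups of evenly spread values, and levels of single cells are strongly skewed. The 11 E14.5 negative cells are too many for this limit and were not tested.

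Among P5 positive cells, L2P3 stood apart with 111 CPM of Kcnj2 and 115 CPM of Kcnq1. L2P7 did so with 20.1 CPM of Kcnd2 and 5.43 CPM of Cacna1g, and L2P10 with 18.5 CPM of Cacna1h. Different channel genes were thus high in different cells of this group. Among E14.5 positive cells the values were 461 CPM of Kcnd2 in G8, 10.99 CPM of Cacna1g in G10, 35.1 CPM of Cacna1h in G29 and 0.119 CPM of Hcn4, a single read, in G2. Among P5 negative cells they were 275 CPM of Kcnj2 in L2N9, 22.2 CPM of Cacna1h in L2N12, and 9.23 CPM of Kcnh2 with 15.6 CPM of Kcnq1 in L2N7.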

How the results depend on the processing

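Of the genes, 5 were past 2-fold for P5 positive over E14.5 positive and 4 in each other comparison. With 1 cell left out these counts ran from 3 to 6 (P5 positive over E14.5 positive), 3 to 5 (E14.5 positive over negative), 2 to 5 (P5 positive over negative) and 3 to 6 (P5 negative over E14.5 negative). At 4-fold, 2 remained past the limit for E14.5 positive over negative and 2 for P5 positive over negative. The sign turned in 14 of 610 recomputed ratios, 6 from a ratio past 2-fold and 8 from one short of it. With 1 cell left out, the log2 ratio ran from -4.21 to 4.39 for Kcnj2, -10.56 to 1.96 for Kcnd2 and -7.34 to 0.48 for Cacna1h (P5 positive over E14.5 positive). For Kcnj2 it ran from -9.07 to 1.59 (P5 positive over negative) and from -0.038 to 3.48 (P5 negative over E14.5 negative). At E14.5, Kcnq1 was 0.85 within label numbers 1 to 10 and -3.66 within 21 to 30, and Kcnd2 was 3.34 and -11.83. The cause was not tested. DESeq2 scaling moved the median log2 ratio of all genes from -0.16 to 0.24 (P5 positive over E14.5 positive) and from -0.10 to 0.16 (P5 negative over E14.5 negative). It moved it from -0.18 to -0.30 for E14.5 positive over negative, and edgeR scaling moved it from -0.16 to 0.00 and from -0.31 to -0.16 for the P5 positive comparisons. Keeping only cardiomyocyte-led cells could not be run against P5 negative cells, as 0 remained. No paired analysis was possible because each cell is a library of its own and no result comes from a test.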

Other observations

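One E14.5 negative cell, N21, was singled out after its values were seen, because it had the highest Cacna1g level of the 33 cells and 1 of the 3 Hcn4 reads. It also had the highest level among 21 E14.5 cells of the L-type subunit genes Cacna1d (184 CPM, next 19.8 in N10), Cacna2d2 (342 CPM, next 14.3 in N23) and Cacna2d1 (1212 CPM, next 237 in G1). The remaining L-type genes, the pore gene Cacna1c and Cacnb2, were not high in N21, at 1.77 and 25.3 CPM. Both values were below the E14.5 negative medians of 93.5 and 31.8 CPM. The conduction system factor Tbx3 was at 174 CPM in N21 (next 30.1 in G29) and Smoc2 at 53.1 CPM (next 0.0597 in G25). Of the other 5 matched pacemaker and conduction markers, Shox2 had 1 read and Tbx18, Gja5, Isl1 and Vsnl1 had 0, against 621 CPM of Tbx18 in G25 and 16.9 CPM of Gja5 in N3. Hey2 and Irx4, genes of working ventricular muscle, had 0 reads in N21, while Myl2 was at 3448 CPM. Cacna1h was at 36.1 CPM, and Kcnj2 and Kcnd2 had 0 reads. N21 also had 379 CPM of Lyz2, a macrophage gene, with 0 reads of Cd68 and Csf1r. No label sets this cell apart.

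Over all groups, Kcnd2 and Cacna1g had 0 reads in the 7 cells under 10000 CPM of cardiomyocyte markers, against 28.1 and 5.68 CPM in the 26 other cells. Kcnd2 and Cacna1g were each read in 11 of the 33 cells, so many of the 26 had no read either. G8 (5902) and N24 (5070) held most of the 11906 counts of Kcnd2. Kcnj2 was at 32.9 CPM in those 7 cells and 7.45 CPM in the 26, but without L2N9, left out after the data were seen, the former was 4.67 CPM. These cells are mostly of 1 group, so marker class and group cannot be told apart.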
